A study of Mus musculus with 74 samples.

Results

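The 10 genes described here encode cytokine receptor chains of the common gamma family and its relatives: Il2rg, Il2rb, Il15ra, Il7r, Il21r, Il4ra, Il6ra, Il6st, Il10ra and Ifngr1. They were taken by name as a family and are 10 of the 49480 gene symbols in the deposited raw count table. The study sorted 5 immune cell types from MC38 tumors and from spleens of mice aged 12 or 3 months and sequenced each sorted sample with Smart-seq2, which copies full-length cDNA from small numbers of cells. MC38 is a mouse colon carcinoma line; it was grown under the skin, and tissue was taken on day 10. Each library was made from 1000 cells sorted a second time, and the 74 libraries fall into 20 groups by cell type, tissue and age. A level is given throughout in CPM, the count of a gene for every 1000000 counts of the library.

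The mice were C57BL/6J, written C57/BL/6J in the strain tag, aged 12 or 3 months, and the labels name no mutant allele and no drug. Macrophages were sorted as CD45+CD11b+F4/80+ cells, with 4 libraries in each of tumor at 12 months, tumor at 3 months, spleen at 12 months and spleen at 3 months. Regulatory T cells, sorted as CD45+TCRb+CD4+CD25+, and CD8 T cells, sorted as CD45+TCRb+CD8+, also had 4 libraries in each of these groups. Dendritic cells, sorted as CD45+CD11b+CD11c+MHCII+, had 3 libraries in tumor at 12 months, 4 in tumor at 3 months, 3 in spleen at 12 months and 3 in spleen at 3 months. Conventional CD4 T cells, sorted as CD45+TCRb+CD4+CD25-, had 4, 2, 4 and 3 libraries in the same order of groups. The spleens carry the same tumor label as the tumors, so no group comes from tumor-free mice, and all tumors derive from a single cell line. The mice were female apart from 4 libraries, replicate 1 of each dendritic cell group, and sex was a term in the dendritic cell fits. For 2 spleen dendritic cell libraries the title says 3 months and the age tag says 12; the title was followed. The labels do not say that libraries came from separate animals, so p-values measure only the spread between libraries.

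Cytokine receptors of this kind are assembled from chains. Il2rg, the common gamma chain, pairs with Il7r to bind interleukin 7, with Il21r to bind interleukin 21, with Il4ra to bind interleukin 4, and with Il2rb to bind interleukin 2 or interleukin 15, for which Il2ra and Il15ra are the high-affinity chains. Il6st (gp130) is the signaling chain for interleukin 6 once Il6ra has bound it; Il10ra and Ifngr1 are the ligand-binding chains for interleukin 10 and interferon gamma, and all of these receptors signal through Janus kinases and STAT transcription factors.

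Total counts per library ranged from 1652812 to 9115858, with 16576 to 24475 symbols detected. Summed over marker lists, macrophage libraries had 17613 to 41801 CPM of macrophage markers in tumor against 5863 to 8802 CPM in spleen, and dendritic cell libraries 857 to 3018 CPM of dendritic cell markers in tumor against 1679 to 2763 CPM in spleen. Foxp3, the lineage factor of regulatory T cells, was at 869 to 1310.1 CPM in tumor against 889 to 1194 CPM in spleen regulatory T cells. Markers of other cell types were also present. Among macrophages and dendritic cells, the median sum exceeded that of the sorted type for neutrophil markers in spleen macrophages. It did so for macrophage and monocyte markers in tumor dendritic cells. The lists differ in their number of genes, so these sums do not measure purity. In macrophages the summed level of 10 neutrophil markers was 14.6 to 782 CPM in tumor against 3869 to 38952 CPM in spleen, and that of 8 B cell markers was 6.76 to 36.9 CPM in tumor against 923 to 3171 CPM in spleen. In dendritic cells the B cell sum was 11.6 to 35.6 CPM in tumor against 524 to 3359 CPM in spleen, and the sum of 10 macrophage markers was 3587 to 21323 CPM in tumor against 768 to 1014 CPM in spleen. Their sum of 5 monocyte markers was 2575 to 4431 CPM in tumor against 1006 to 1869 CPM in spleen. In conventional CD4 T cells the sum of 4 regulatory T cell markers was 1026 to 2579.8 CPM in tumor against 187 to 1176 CPM in spleen. None of these markers was at 0 in every library of its group. The sum of 5 monocyte markers was 1428 to 3111 CPM in tumor against 16.9 to 177 CPM in spleen regulatory T cells, 1164 to 2938 CPM in tumor against 43.0 to 129 CPM in spleen conventional CD4 T cells and 1969 to 5309 CPM in tumor against 553 to 1199.5 CPM in spleen CD8 T cells. Ccr2, Ly6c2 and Plac8 made up most of it, while the monocyte markers Chil3 and Fn1 were at most 8.47 CPM in any T cell library. The sum of 10 neutrophil markers in regulatory T cells was 69.1 to 236 CPM in tumor against 1.43 to 6.51 CPM in spleen (Ly6g at 0 in every spleen library), led in tumor by Ltf, with S100a8 and S100a9 at most 1.70 CPM. The part of these transcripts in the results below was not tested.

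The genes lie on 9 chromosomes of the GRCm38 mouse assembly. Il4ra (chr7:125552120-125579474, forward strand) and Il21r (chr7:125603429-125633570, forward strand) are neighbours 23955 bases apart, and Il15ra (chr2:11705290-11734317, forward strand) lies 12097 bases from Il2ra. Il7r (chr15:9505788-9530176) and Il2rb (chr15:78479256-78495271) share a chromosome at a distance, both on the reverse strand. Il2rg is on the X chromosome (chrX:101264378-101268255, reverse strand), Il6ra at chr3:89864059-89913196 (reverse), Il6st at chr13:112464070-112510086 (forward), Il10ra at chr9:45253837-45269149 (reverse) and Ifngr1 at chr10:19591949-19610229 (forward). Counts cover all exons of a gene, so isoforms were not separated. The 250 bases before the start site are printed for 3 members: Ifngr1, which had the largest tumor against spleen differences of any member in regulatory and conventional CD4 T cells, Il21r, which was high in regulatory T cells and in tumor macrophages, and Il6ra, which was lower in tumor in 4 of the 5 cell types. The sequences are from RefSeq on GRCm38, read 5′ to 3′ on the strand of the gene, and capitals mark matches to the motifs searched. The Ifngr1 window is chr10:19591699-19591948, the Il21r window chr7:125603179-125603428 and the Il6ra window chr3:89913197-89913446.
Ifngr1: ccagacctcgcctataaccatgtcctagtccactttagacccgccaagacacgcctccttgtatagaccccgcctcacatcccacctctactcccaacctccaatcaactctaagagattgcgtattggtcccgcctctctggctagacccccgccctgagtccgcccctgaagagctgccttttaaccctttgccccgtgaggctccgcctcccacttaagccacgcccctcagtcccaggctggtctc
Il21r: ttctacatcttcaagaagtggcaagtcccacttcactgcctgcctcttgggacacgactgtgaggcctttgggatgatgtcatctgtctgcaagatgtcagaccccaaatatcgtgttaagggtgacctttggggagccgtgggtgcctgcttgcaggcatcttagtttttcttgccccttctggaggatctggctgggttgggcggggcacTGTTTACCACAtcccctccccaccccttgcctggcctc
Il6ra: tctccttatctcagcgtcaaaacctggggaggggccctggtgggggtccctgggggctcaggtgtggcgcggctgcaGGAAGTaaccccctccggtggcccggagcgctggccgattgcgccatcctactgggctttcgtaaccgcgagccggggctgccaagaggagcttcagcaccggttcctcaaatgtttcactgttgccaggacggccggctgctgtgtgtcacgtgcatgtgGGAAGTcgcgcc

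Motifs were searched on both strands in these windows and in all 32851 promoter windows of the same length. TTCNNNGAA (STAT) was found in 7.02% of all windows, GTAAACA (FOXO) in 3.17%, TGANTCA (AP-1) in 6.75%, TGTGGT (RUNX) in 14% and GGAAGT (ETS) in 19.7%. The Ifngr1 window held none of these letters. The Il21r window held a FOXO match on the reverse strand, TGTTTAC, whose first base is at -38 from the start site, and a RUNX match on the reverse strand, ACCACA at -33, which overlaps it. The Il6ra window held the ETS letters at -173 and at -12, both on the forward strand. Among the other members, Il2rg had a RUNX match at -227 and Il7r a STAT match at -142 with an ETS match at -49. Il15ra had an AP-1 match at -30 in the window chr2:11705462-11705711 and no match in its other window, chr2:11705043-11705292. Il4ra and Il6st had no match. Of the 10 members 8 had a promoter entry, without Il2rb and Il10ra. These matches are descriptions of the sequence; no binding was measured.

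Every member was detected in every cell type, with a different order for each. On a scale that allows genes to be compared, CPM per kilobase of exon, Ifngr1 was the most abundant chain in tumor regulatory T cells at 849 CPM per kb, ahead of Il2rg at 359 and Il2rb at 277 CPM per kb. In tumor macrophages Il10ra at 199 and Ifngr1 at 197 CPM per kb led, followed by Il4ra at 154 CPM per kb. In spleen CD8 T cells Il7r at 229 and Il2rg at 210.0 CPM per kb led. Il15ra reached at most 11.8 CPM per kb, in tumor CD8 T cells. Between the highest and the lowest of the 20 group means, Il2rb spanned 141-fold and Il7r 139-fold, while Il2rg spanned 4.89-fold and Il15ra 3.27-fold. For Il15ra and Il6st none of the 19 steps between neighbouring groups separated the libraries of one group from the next, against 6 steps each for Il2rb and Ifngr1 and 1 step each for Il7r and Il2rg. The groups were ordered by their own means, and no such count was made over all genes. Whether any of these counts is unusual was therefore not tested.

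**Figure D1:**
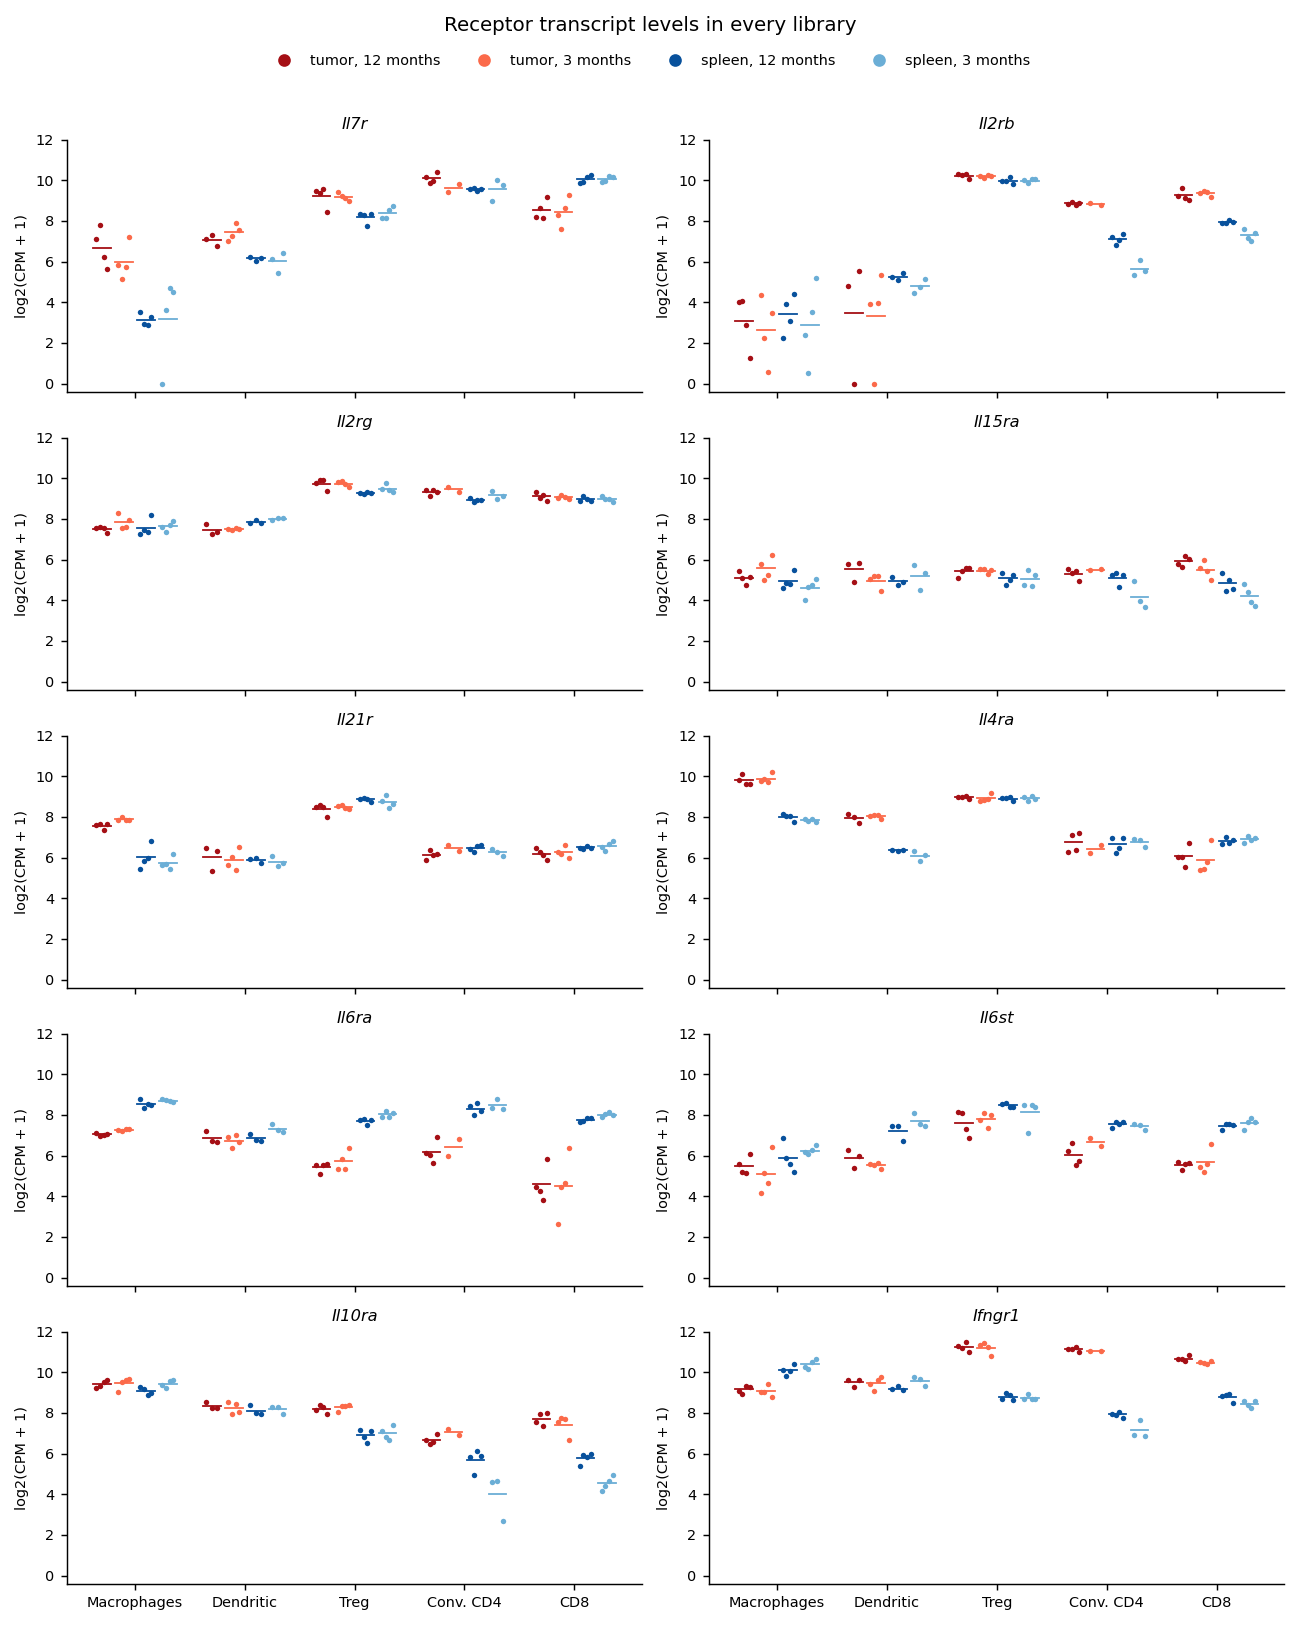
Each panel shows 1 receptor gene on a log2(CPM + 1) axis, with a point for every library and a line at the group mean, for the 5 cell types in tumor at 12 and 3 months and in spleen at 12 and 3 months. Tissue separated the libraries of several members, such as Ifngr1 in T cells (1334 CPM or more in every tumor T cell library, 503 CPM or less in every spleen T cell library), while the ages largely overlapped.

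Tumor and spleen were compared within each cell type by edgeR's quasi-likelihood test with age as a term, and adjusted p-values (Benjamini-Hochberg over all genes tested, threshold 0.05) are given. All 10 members passed the filter on low counts in every comparison. Of 50 member tests, 38 passed the threshold, but the tissues differed widely as a whole. In macrophages 5 members were higher and 2 lower in tumor, where 51.7% of genes (23.9% higher, 27.8% lower) differed; in dendritic cells 6 were higher and 1 lower, against 47.1% of genes (24.4% higher, 22.7% lower). In regulatory T cells 7 were higher and 1 lower (53.5% of genes, 25.9% higher and 27.6% lower), in conventional CD4 T cells 5 higher and 2 lower (27.2% of genes, 16% higher and 11.2% lower) and in CD8 T cells 5 higher and 4 lower (42.1% of genes, 22.5% higher and 19.6% lower). The median log2 fold change of the 10 members was 0.34 in macrophages, 0.47 in dendritic cells, 0.53 in regulatory T cells, 0.35 in conventional CD4 T cells and -0.01 in CD8 T cells, beside medians over all genes of -0.06, -0.04, -0.05, 0.04 and -0.01. Scaling by library totals in place of TMM moved those all-gene medians to -0.28, -0.37, -0.29, -0.00 and -0.10; it changed the direction of no called member. With library totals the test called 2136 higher and 4776 lower genes (with TMM 3072 and 3582) in macrophages, 2147 higher and 5149 lower genes (with TMM 3408 and 3175) in dendritic cells and 2455 higher and 5298 lower genes (with TMM 3452 and 3686) in regulatory T cells. Because each library holds RNA from many cells, a lower level cannot be told apart between fewer cells carrying a transcript and less transcript per cell.

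**Figure D2:**
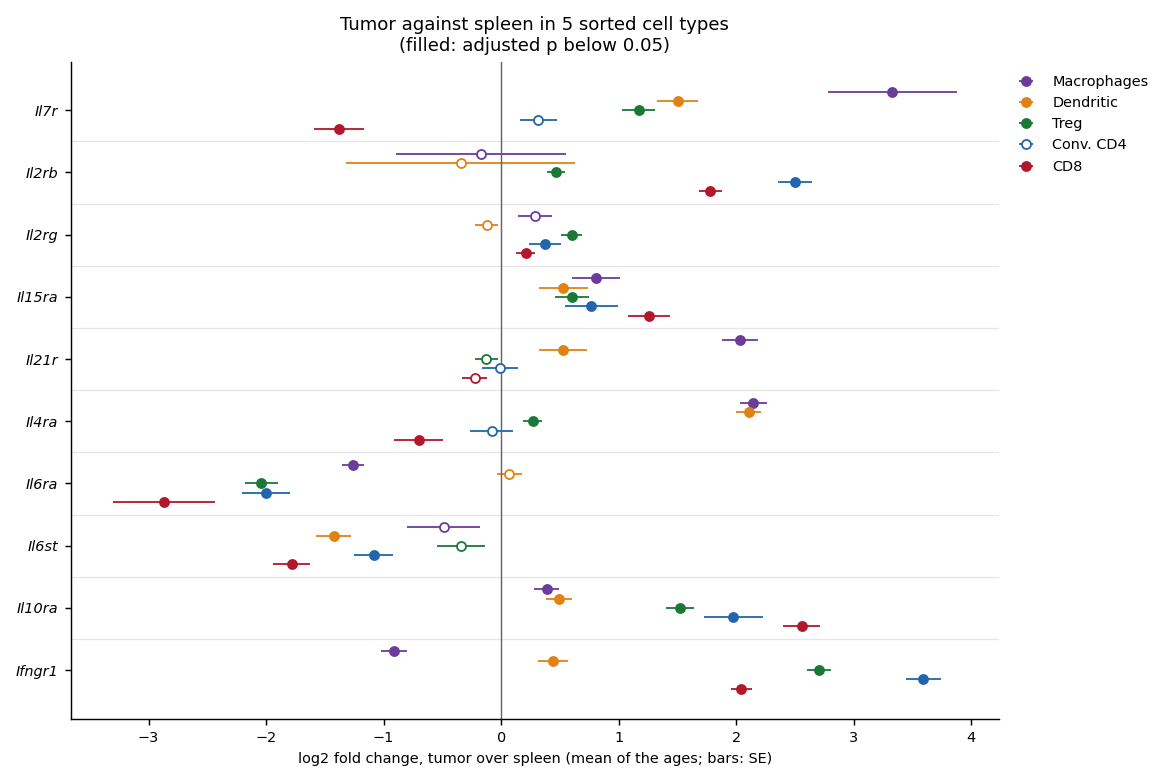
Log2 fold change of tumor over spleen with its standard error for the 10 receptor genes (1 row per gene, 1 colour per cell type); filled points passed an adjusted p of 0.05. Il15ra and Il10ra lie above 0 in all 5 types, Il6ra is lower in 4 types and Il7r is split, at 3.33 in macrophages and -1.38 in CD8 T cells.

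Il2rg, the signaling chain with which Il2rb, Il7r, Il21r and Il4ra pair, had tissue differences of at most 0.60 on the log2 scale. Its highest level was in tumor regulatory T cells at 858 ± 99.1 CPM (SD, n = 8 libraries over both ages), and its range there overlapped that of spleen regulatory T cells, next in order at 669.8 ± 84.1 CPM. Myeloid cells had the least, ending with tumor dendritic cells at 178 ± 19.3 CPM (SD, n = 7), a range that overlapped that of spleen macrophages. In regulatory T cells the lowest, median and highest libraries had 669.5, 883 and 955 CPM in tumor, against 606, 645 and 861 CPM in spleen. The tumor libraries tended to be high, and the tissues overlapped. The log2 fold change was 0.60 (SE 0.09, adjusted p = 1.06e-05). It was 0.37 (SE 0.14, adjusted p = 0.0426) in conventional CD4 and 0.21 (SE 0.08, adjusted p = 0.0374) in CD8 T cells, and both calls were lost in most alternatives. The conventional CD4 call was lost in 13 of 19 alternatives: with library totals in place of TMM, without the filter on low counts, with a replicate block and on leaving out any single library but tumor 12-month replicate 2 and spleen 3-month replicates 1 and 3. The CD8 call was lost in 12 of 21 alternatives: with library totals, without the filter and on leaving out any single library but tumor 12-month replicates 2 and 4, tumor 3-month replicates 1 and 4, spleen 12-month replicate 2 and spleen 3-month replicate 1. In macrophages the value was 0.29 (SE 0.15, adjusted p = 0.106). Dendritic cell libraries had 150.0, 179 and 212 CPM (lowest, median, highest) in tumor, against 219, 246 and 264 CPM in spleen, so on the CPM scale every tumor library was below every spleen library. With TMM the log2 fold change there was -0.12 (SE 0.10, adjusted p = 0.33), and with library totals it was -0.45 (SE 0.10, adjusted p = 0.00149).

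Il2rb, the signaling chain for interleukin 2 and interleukin 15, was highest in regulatory T cells. It stood at 1186 ± 78.1 CPM in tumor and 1013 ± 76.7 CPM in spleen regulatory T cells, overlapping each other and above every library of all other types. Tumor CD8 T cells came next, then tumor conventional CD4 T cells, with no overlap between these neighbours. The lowest, median and highest libraries of conventional CD4 T cells had 439.6, 466 and 483 CPM in tumor, against 39.5, 112 and 162 CPM in spleen. The CD8 T cell libraries had 526, 625 and 792 CPM in tumor, against 129.7, 214 and 259.6 CPM in spleen. In both types every tumor library was above every spleen library. edgeR gave log2 fold changes of 2.503 (SE 0.15, adjusted p = 4.25e-13) in conventional CD4 T cells, 1.78 (SE 0.10, adjusted p = 6.43e-13) in CD8 T cells and 0.47 (SE 0.07, adjusted p = 2.09e-05) in regulatory T cells. In the myeloid types the transcript was scarce, at 9.07 ± 7.22 CPM in tumor macrophages and 20.1 ± 18.0 CPM in tumor dendritic cells. Replicate 2 of tumor dendritic cells had no Il2rb count at either age, where 3 counts would have given 0.469 CPM (12 months) and 0.329 CPM (3 months); these libraries also had the highest macrophage marker sums, 21323 and 17884 CPM, against 3587 to 7274 CPM in the other tumor dendritic cell libraries.

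Il15ra, which captures interleukin 15 and can present it to neighbouring cells, was higher in tumor in all 5 cell types. Its 5 highest type and tissue means were those of the 5 tumor populations, although the ranges of all neighbours in the order overlapped. In CD8 T cells the lowest, median and highest libraries had 30.8, 51.6 and 70.2 CPM in tumor, against 12.2, 21.9 and 39.2 CPM in spleen. The ranges overlapped over the 2 ages together, and within each age every tumor library was above every spleen library. As log2 fold changes these were 1.26 (SE 0.18, adjusted p = 4.13e-06) there, 0.81 (SE 0.21, adjusted p = 0.00292) in macrophages and 0.77 (SE 0.22, adjusted p = 0.0121) in conventional CD4 T cells. It was 0.60 (SE 0.14, adjusted p = 0.00131) in regulatory T cells and 0.53 (SE 0.20, adjusted p = 0.0449) in dendritic cells. The dendritic cell call was lost in 15 of 22 alternatives, among them DESeq2, library totals, the replicate block, the fit without sex, leaving out the 2 libraries of conflicting age labels, and leaving out any single library but tumor 12-month replicate 2, tumor 3-month replicates 1 and 4 and spleen 3-month replicates 1 and 4. The conventional CD4 call was lost without tumor 3-month replicate 1 (adjusted p = 0.0529).

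Il7r, the chain that binds interleukin 7 and, with Crlf2, thymic stromal lymphopoietin, went in opposite directions among T cells. CD8 T cells had 384 ± 147 CPM in tumor and 1066 ± 115 CPM in spleen, the highest mean, whose range overlapped that of tumor conventional CD4 T cells. Their lowest, median and highest libraries were 194, 353 and 617 CPM in tumor, against 922, 1068 and 1223 CPM in spleen, with no overlap. Replicate 4 was the highest of the tumor CD8 libraries at both ages, reaching 576 CPM (12 months) and 617 CPM (3 months). In regulatory T cells the libraries had 347, 632 and 749 CPM in tumor, against 217, 318 and 419 CPM in spleen. The tumor libraries were higher within each age, with a small overlap over both ages. The log2 fold change was -1.38 (SE 0.21, adjusted p = 9.1e-05) in CD8 T cells and 1.17 (SE 0.14, adjusted p = 4.43e-07) in regulatory T cells. In conventional CD4 T cells it was 0.32 (SE 0.16, adjusted p = 0.144). Myeloid cells had less Il7r on average than T cells, yet more in tumor. Macrophage libraries had 34.4, 65.6 and 218 CPM in tumor, against 0, 9.47 and 25.0 CPM in spleen, where 1 library, 3-month replicate 1, had no count (3 counts would be 0.911 CPM). Dendritic cell libraries had 109, 154 and 234 CPM in tumor, against 42.7, 70.9 and 85.4 CPM in spleen. Neither type showed any overlap. Expressed as log2 fold changes the differences were 3.33 (SE 0.55, adjusted p = 0.000145) in macrophages and 1.50 (SE 0.18, adjusted p = 7.79e-06) in dendritic cells. The summed level of 6 T cell markers had a lower median in tumor in both types, with overlapping ranges. It was 10.9 CPM (0.709 to 63.6) in tumor against 40.1 CPM (27.1 to 84.8) in spleen macrophages. In dendritic cells it was 7.62 CPM (0.768 to 19.5) in tumor against 14.2 CPM (9.76 to 31.2) in spleen. Its part in the Il7r differences was not tested.

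Il21r, which binds interleukin 21, was highest in regulatory T cells, at 347 ± 40.6 CPM in tumor and 447 ± 55.5 CPM in spleen, and next highest in tumor macrophages. Its upstream window is printed above with overlapping FOXO and RUNX letters. Macrophage libraries had 164, 217 and 252 CPM (lowest, median, highest) in tumor, against 41.9, 53.3 and 113 CPM in spleen. Every tumor library was above every spleen library. edgeR's log2 estimate was 2.03 (SE 0.16, adjusted p = 1.96e-09) in macrophages and 0.53 (SE 0.21, adjusted p = 0.0485) in dendritic cells. The dendritic cell call was lost in 15 of 22 alternatives, among them library totals, DESeq2, leaving out the 2 libraries of conflicting age labels, and leaving out any single library but tumor 12-month replicate 2 and tumor 3-month replicates 1 and 3. In regulatory T cells the value was -0.13 (SE 0.10, adjusted p = 0.295), which passed the threshold under 1 alternative, scaling by library totals. In conventional CD4 and CD8 T cells the values were -0.01 (SE 0.15, adjusted p = 0.964) and -0.23 (SE 0.11, adjusted p = 0.0973), and the CD8 value passed the threshold with library totals, -0.31 (SE 0.11, adjusted p = 0.0295).

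Il4ra, shared by the interleukin 4 and interleukin 13 receptors, was led by tumor macrophages at 925 ± 141 CPM, with no library of any other population as high. Macrophage libraries had 772, 891 and 1166 CPM in tumor, against 214, 240.0 and 284 CPM in spleen. Dendritic cell libraries had 208, 262 and 278 CPM in tumor, against 55.7, 78.4 and 82.4 CPM in spleen. The tissues did not overlap in either type. The log2 fold change was 2.15 (SE 0.12, adjusted p = 1.82e-11) in macrophages and 2.11 (SE 0.10, adjusted p = 1.51e-09) in dendritic cells, and both calls held in all alternatives. Regulatory T cells came next in level, at 491 ± 46.2 CPM in tumor and 481 ± 28.3 CPM in spleen with overlapping ranges. Their log2 fold change was 0.27 (SE 0.08, adjusted p = 0.00812), a call lost with library totals and without the filter on low counts. In CD8 T cells Il4ra was lower in tumor, -0.70 (SE 0.21, adjusted p = 0.0117), with 40.7, 59.3 and 115 CPM in tumor libraries against 101, 116 and 135 CPM in spleen libraries. The 2 highest tumor libraries, replicate 4 at each age, lay within the spleen range. In conventional CD4 T cells the value was -0.08 (SE 0.18, adjusted p = 0.792).

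Il6ra, which binds interleukin 6, was lower in tumor in macrophages and in all 3 T cell types. Spleen macrophages had the most at 394 ± 42.0 CPM and tumor CD8 T cells the least at 30.0 ± 25.6 CPM. Macrophage libraries had 124, 142 and 159 CPM in tumor, against 323, 400.4 and 442 CPM in spleen. Regulatory T cell libraries had 33.0, 45.0 and 80.6 CPM in tumor, against 180.0, 232 and 290.1 CPM in spleen. CD8 T cell libraries had 5.25, 20.8 and 81.7 CPM in tumor, against 198, 232 and 279 CPM in spleen. In none of these types did the tissues overlap. On the log2 scale tumor over spleen was -2.87 (SE 0.43, adjusted p = 0.000138) in CD8 T cells, -2.04 (SE 0.14, adjusted p = 8.39e-11) in regulatory T cells, -2.002 (SE 0.21, adjusted p = 2.23e-08) in conventional CD4 T cells and -1.26 (SE 0.09, adjusted p = 1.21e-09) in macrophages. Tumor CD8 replicate 4 was again the highest tumor library at both ages, at 56.0 CPM (12 months) and 81.7 CPM (3 months). In dendritic cells the value was 0.07 (SE 0.11, adjusted p = 0.629). The Il6ra promoter window printed above holds the ETS letters at -173 and -12.

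Il6st, the gp130 chain that carries the signal for Il6ra and for the receptors of Lif, Osm and interleukin 27, was lower in tumor in 3 types. CD8 T cell libraries had 35.6, 46.7 and 93.7 CPM (lowest, median, highest) in tumor, against 150.1, 185 and 227 CPM in spleen. Conventional CD4 libraries had 45.7, 82.0 and 114 CPM in tumor, against 153, 184 and 199 CPM in spleen. Dendritic cell libraries had 39.9, 46.7 and 77.7 CPM in tumor, against 105, 175 and 275 CPM in spleen. Tumor and spleen did not overlap in these types. edgeR gave log2 fold changes of -1.78 (SE 0.16, adjusted p = 9.25e-09) in CD8 T cells, -1.08 (SE 0.17, adjusted p = 1.38e-05) in conventional CD4 T cells and -1.43 (SE 0.15, adjusted p = 2.67e-06) in dendritic cells. Regulatory T cells held the most Il6st, 216 ± 63.5 CPM in tumor and 326 ± 77.9 CPM in spleen, and their log2 value was -0.34 (SE 0.21, adjusted p = 0.171) that passed the threshold with library totals and without spleen 3-month replicate 2, which had 138 CPM. In macrophages the value was -0.49 (SE 0.31, adjusted p = 0.197).

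Il10ra, the ligand-binding chain for interleukin 10, was higher in tumor in all 5 types, with small differences in myeloid and large ones in T cells. Macrophages had the most, 697 ± 103 CPM in tumor and 620.3 ± 110.0 CPM in spleen with overlapping ranges, and spleen conventional CD4 and CD8 T cells the least. CD8 T cell libraries had 102, 196 and 257 CPM in tumor, against 17.0, 34.8 and 61.9 CPM in spleen. Regulatory T cell libraries had 243, 315 and 339 CPM in tumor, against 91.4, 123 and 168 CPM in spleen. Conventional CD4 libraries had 86.5, 109 and 149 CPM in tumor, against 5.39, 30.1 and 70.0 CPM in spleen. All 3 T cell types were separated by tissue without overlap. The log2 fold change was 2.56 (SE 0.16, adjusted p = 1.98e-11) in CD8, 1.97 (SE 0.25, adjusted p = 2.24e-06) in conventional CD4 and 1.52 (SE 0.12, adjusted p = 8.94e-10) in regulatory T cells. It was 0.39 (SE 0.11, adjusted p = 0.00507) in macrophages and 0.49 (SE 0.11, adjusted p = 0.002) in dendritic cells, and these myeloid calls were lost with library totals.

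Ifngr1, the ligand-binding chain of the interferon gamma receptor, was higher in tumor in T cells and lower in tumor in macrophages. Conventional CD4 libraries had 2060.4, 2205 and 2376 CPM (lowest, median, highest) in tumor, against 117, 217 and 265 CPM in spleen. Regulatory T cell libraries had 1773, 2470.2 and 2859 CPM in tumor, against 397, 411 and 503 CPM in spleen. CD8 T cell libraries had 1334, 1499.8 and 1832 CPM in tumor, against 298, 386 and 494 CPM in spleen. Every tumor library exceeded every spleen library in each T cell type. Tumor over spleen came, in log2, to 3.59 (SE 0.15, adjusted p = 5.94e-16) in conventional CD4, 2.71 (SE 0.11, adjusted p = 1.59e-14) in regulatory and 2.04 (SE 0.09, adjusted p = 2.09e-14) in CD8 T cells. Macrophage libraries went the other way, with 439, 536 and 694 CPM in tumor, against 899.6, 1189.7 and 1613 CPM in spleen. They too did not overlap, and the log2 fold change was -0.91 (SE 0.11, adjusted p = 1.23e-06). In dendritic cells it was 0.44 (SE 0.13, adjusted p = 0.0106), a call lost with library totals and without the 2 libraries of conflicting age labels. Monocyte marker sums, given above, were also higher in tumor in these 3 T cell sorts. They were mostly Ccr2, Ly6c2 and Plac8, with Chil3 and Fn1 at most 8.47 CPM in any T cell library. Their part in the Ifngr1 differences was not tested. Ifngr2, the signaling partner of Ifngr1, was lower in tumor in regulatory T cells, -1.95 (SE 0.18), with 9.75 to 34.5 CPM in tumor against 80.8 to 124 CPM in spleen, and in conventional CD4 T cells, -1.53 (SE 0.31).

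Regulatory T cells were next set against conventional CD4 T cells within each tissue. In tumor, 6 members were higher and 2 lower in regulatory T cells, where 44.5% of genes (22.3% higher, 22.2% lower) differed, and in spleen also 6 were higher and 2 lower, against 45.1% of genes (24.4% higher, 20.7% lower). The median of the 10 members was 0.89 in tumor and 0.84 in spleen, beside medians over all genes of -0.07 and 0.11. With library totals the all-gene median was 0.32 in spleen, with 5106 higher and 2606 lower genes (with TMM 4051 and 3445). In tumor the log2 differences were 2.37 (SE 0.15) for Il4ra, 2.17 (SE 0.13) for Il21r, 1.43 (SE 0.21) for Il6st, 1.40 (SE 0.21) for Il10ra, 1.39 (SE 0.11) for Il2rb and 0.39 (SE 0.12) for Il2rg. Il7r at -0.61 (SE 0.15) and Il6ra at -0.73 (SE 0.18) were lower in regulatory T cells. In spleen Il2rb at 3.39 (SE 0.11), Il21r at 2.25 (SE 0.12), Il4ra at 1.99 (SE 0.13) and Ifngr1 at 1.03 (SE 0.11) were higher in regulatory T cells, as were Il10ra at 1.83 (SE 0.20) and Il6st at 0.65 (SE 0.18), while Il7r at -1.50 (SE 0.15) and Il6ra at -0.73 (SE 0.16) were lower. Without conventional CD4 tumor 3-month replicate 3 the tumor calls for Il2rg and Il6ra were lost, and without the 2 spleen conventional CD4 libraries rich in ribosomal protein transcripts the spleen call for Il6st was lost (adjusted p = 0.0592).

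The tumor against spleen effects themselves differed between regulatory and conventional CD4 T cells for 3 members, in a test that called 9.55% of genes (4.25% higher, 5.3% lower). With library totals 355 higher and 1563 lower genes (with TMM 705 and 881) passed. The difference of the log2 effects was -2.001 (SE 0.15, adjusted p = 8.59e-13) for Il2rb, whose level in regulatory T cells was already 1013 ± 76.7 CPM in spleen, against 101 ± 50.2 CPM in spleen conventional CD4 T cells. It was -0.85 (SE 0.16, adjusted p = 0.000327) for Ifngr1 and 0.89 (SE 0.22, adjusted p = 0.00495) for Il7r. Regulatory T cell markers were detected in the CD25- gate, with Foxp3 at 76.1 to 354 CPM in tumor against 21.2 to 79.9 CPM in spleen conventional CD4 T cells.

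CD8 T cells were also set against conventional CD4 T cells. In tumor 2 members were higher and 4 lower in CD8 T cells, where 14.5% of genes (8.07% higher, 6.41% lower) differed, and in spleen 2 were higher, against 11% of genes (5.39% higher, 5.61% lower). In tumor Il10ra at 0.83 (SE 0.23) and Il2rb at 0.56 (SE 0.12) were higher in CD8 T cells, and Il6ra at -1.32 (SE 0.39), Il7r at -1.18 (SE 0.20), Il6st at -0.61 (SE 0.17) and Ifngr1 at -0.42 (SE 0.11) were lower. Library totals called 936 higher and 1342 lower genes (with TMM 1351 and 1073) in tumor and 298 higher and 339 lower genes (with TMM 435 and 294) for the difference of effects. The calls for Il6ra and Il10ra were lost without conventional CD4 tumor 3-month replicate 3, that for Il6ra also without the filter on low counts, conventional CD4 tumor 12-month replicate 4 or CD8 tumor 12-month replicate 1 or 2, and those for Il6st and Ifngr1 without replicate 1 of the same group, which has 2 libraries. In spleen Il2rb at 1.26 (SE 0.11) and Ifngr1 at 1.11 (SE 0.11) were higher in CD8 T cells. The difference of the tumor against spleen effects passed the threshold for Il7r, -1.67 (SE 0.28, adjusted p = 0.00046), Ifngr1, -1.53 (SE 0.15, adjusted p = 9.07e-09), and Il2rb, -0.70 (SE 0.16, adjusted p = 0.0073), in a test that called 4.35% of genes (2.6% higher, 1.76% lower). For Il2rb the adjusted p was 0.135 without the 2 spleen conventional CD4 libraries rich in ribosomal protein transcripts.

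Macrophages and dendritic cells differed in 5 members in tumor, 4 higher and 1 lower in macrophages (45.9% of genes, 22% higher and 23.9% lower), and in 6 in spleen, 4 higher and 2 lower (52.9% of genes, 27.1% higher and 25.8% lower). Il4ra and Il10ra were higher in macrophages in both tissues, Il4ra by 1.86 (SE 0.11) in tumor and 1.82 (SE 0.12) in spleen and Il10ra by 1.19 (SE 0.12) in tumor and 1.28 (SE 0.12) in spleen. Il21r was higher in tumor macrophages, 1.71 (SE 0.20), and its spleen value was 0.20 (SE 0.21). Il6ra was higher in macrophages by 0.39 (SE 0.10) in tumor and 1.72 (SE 0.11) in spleen. Ifngr1 was lower in tumor macrophages, -0.42 (SE 0.13), and higher in spleen macrophages, 0.93 (SE 0.14). In spleen Il7r at -2.62 (SE 0.48) and Il6st at -1.16 (SE 0.30) were lower in macrophages. The tumor against spleen effects differed between the types for Il21r, 1.51 (SE 0.26, adjusted p = 7.81e-05), Il6ra, -1.32 (SE 0.13, adjusted p = 1.69e-08), Ifngr1, -1.35 (SE 0.17, adjusted p = 8.68e-07), and Il7r, 1.82 (SE 0.62, adjusted p = 0.0355), in a test that called 23.3% of genes (7.88% higher, 15.4% lower). The Il7r call was lost in 17 of 38 alternatives. These were a replicate block, leaving out or regrouping the libraries of conflicting age labels, leaving out the 2 macrophage-rich tumor dendritic cell libraries, and leaving out any of 13 single libraries. In dendritic cells the single libraries were replicates 1 and 3 of tumor at 12 months, 1 of tumor at 3 months, 1, 3 and 4 of spleen at 12 months and 1 and 4 of spleen at 3 months. In macrophages they were replicate 2 of tumor at 12 months, 4 of tumor at 3 months, 2 and 3 of spleen at 12 months and 2 of spleen at 3 months.

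**Figure D3:**
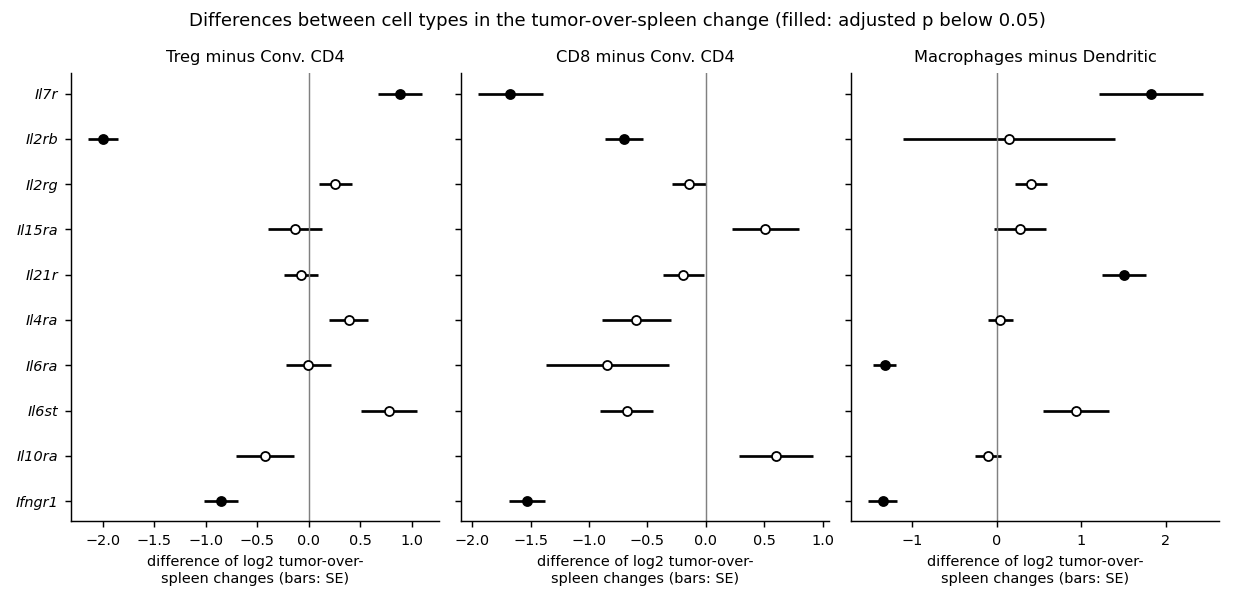
Difference between cell types in the tumor over spleen log2 effect, with its standard error, for the 10 receptor genes in 3 pairs of types; filled points passed an adjusted p of 0.05. Ifngr1 is below 0 in all 3 pairs (-0.85, -1.53 and -1.35), and Il2rb reaches -2.0 for regulatory over conventional CD4 T cells.

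Age was compared within each cell type and tissue as 12 over 3 months, and 4 of 100 member tests passed the threshold, all in spleen T cells and all higher in the older mice. In conventional CD4 T cells of the spleen, where 3.92% of genes (1.96% higher, 1.96% lower) differed, Il2rb had 149, 112, 134 and 162 CPM at 12 months, against 39.5, 67.4 and 45.5 CPM at 3 months. Il10ra there had 56.6, 30.1, 70.0 and 57.4 CPM at 12 months, against 23.7, 24.4 and 5.39 CPM at 3 months. All 4 libraries at 12 months were above all 3 at 3 months for both genes. Expressed as log2 fold changes the differences were 1.29 (SE 0.22, adjusted p = 0.00361) for Il2rb and 1.46 (SE 0.40, adjusted p = 0.0481) for Il10ra. In spleen CD8 T cells, where 1.02% of genes (0.925% higher, 0.0942% lower) differed, Il2rb had 241, 238, 259.6 and 244 CPM at 12 months, against 191, 142, 129.7 and 166 CPM at 3 months. Il10ra had 40.2, 59.7, 55.4 and 61.9 CPM at 12 months, against 17.0, 19.9, 24.2 and 29.3 CPM at 3 months. Again no library at 3 months reached those at 12 months. The log2 fold change was 0.66 (SE 0.12, adjusted p = 0.00527) for Il2rb and 1.28 (SE 0.20, adjusted p = 0.00101) for Il10ra, and both calls held in all alternatives.

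Other measures also differed among the conventional CD4 libraries of the spleen. Their part in the age differences was not tested. With library totals 305 higher and 83 lower genes (with TMM 230 and 230) were called by age in spleen, and the median of all genes shifted to 0.17. The summed regulatory T cell markers were at 855 to 1176 CPM at 12 months, against 187 to 591 CPM at 3 months, and Foxp3 was at 51.7 to 79.9 CPM at 12 months, against 21.2 to 44.8 CPM at 3 months. Replicates 1 and 4 at 3 months had 7.83% and 10.6% of their counts in ribosomal protein genes, against at most 4.16% in the other conventional CD4 libraries of the spleen. Without those 2 libraries the log2 fold change was 0.98 (adjusted p = 0.0786) for Il2rb and 1.08 (adjusted p = 0.393) for Il10ra, with 1 library left at 3 months that is assumed to vary like the others. The Il10ra call was also lost on leaving out any single library but 3-month replicate 3.

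**Figure D4:**
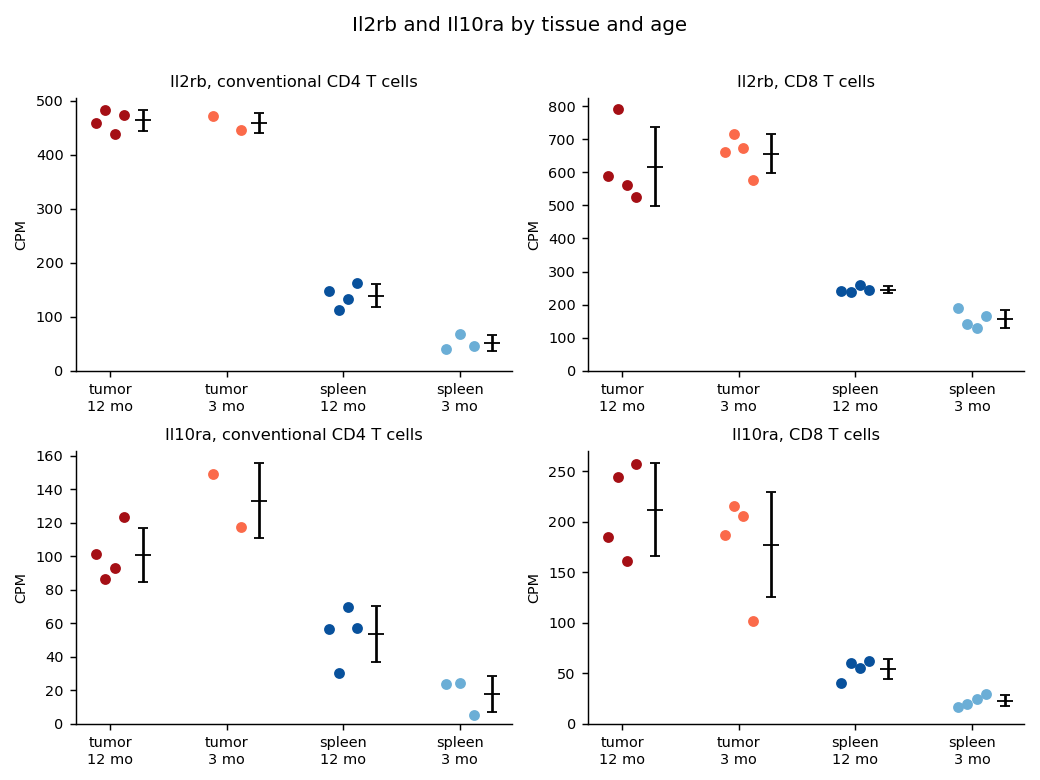
Il2rb and Il10ra levels in CPM in every library of conventional CD4 and CD8 T cells, by tissue and age, with the group mean and SD as bars. In spleen all libraries at 12 months lie above all at 3 months for both genes and both types; in tumor the ages overlap.

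In tumor the same genes showed no such difference past the threshold. In tumor conventional CD4 T cells, where 0.0311% of genes (0.0155% higher, 0.0155% lower) differed and 0 members did, Il2rb had 459.6, 483, 439.6 and 475 CPM at 12 months, against 472 and 445 CPM at 3 months, and edgeR's log2 estimate was 0.00 (SE 0.19, adjusted p = 1). Il10ra there had 101, 86.5, 92.9 and 124 CPM at 12 months, against 149 and 118 CPM at 3 months, and the estimate was -0.41 (SE 0.23, adjusted p = 1). The test of the difference between the age effects in tumor and in spleen passed the threshold for 1 member in conventional CD4 T cells, Il2rb at -1.32 (SE 0.28, adjusted p = 0.0185), where 0.668% of genes (0.0273% higher, 0.641% lower) passed. For Il10ra it was -1.91 (SE 0.50, adjusted p = 0.0956). The Il2rb call was lost in 7 of 19 alternatives: with a replicate block (adjusted p = 0.0592), without the 2 ribosomal-rich spleen libraries (adjusted p = 0.309), and without any one of tumor 3-month replicates 1 and 3, spleen 12-month replicates 1 and 4 and spleen 3-month replicate 1. In CD8 T cells, where 0.143% of genes (0.00753% higher, 0.135% lower) passed, no member did in edgeR. The values were -0.72 (SE 0.19, adjusted p = 0.274) for Il2rb and -0.99 (SE 0.30, adjusted p = 0.532) for Il10ra. Both had an unadjusted p under 0.05, as did 630 of all 13285 genes tested. DESeq2 called 1 member, Il2rb.

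No member passed edgeR's adjusted threshold for age in the 7 other comparisons, nor with DESeq2. In macrophages 0% of genes differed by age in tumor and 0% of genes in spleen, with 3 and 0 members at an unadjusted p under 0.05. Of all genes tested, 663 of 11007 in tumor and 736 of 12131 in spleen were at an unadjusted p under 0.05. In dendritic cells 0% of genes differed in tumor and 0.593% of genes (0.443% higher, 0.15% lower) in spleen, with 0 and 3 members so placed. Among all genes 158 of 12090 in tumor and 1535 of 12650 in spleen were so placed. In regulatory T cells 0% of genes differed in tumor and 0.0489% of genes (0.0489% higher, 0% lower) in spleen, with 0 and 2 members so placed. All genes so placed were 461 of 11698 in tumor and 653 of 12261 in spleen. In tumor CD8 T cells 0% of genes differed, with 0 members and 486 of 11804 genes at an unadjusted p under 0.05. Tumor conventional CD4 T cells had 2 members at an unadjusted p under 0.05, beside 682 of all 12882 genes tested. The log2 age effects over these comparisons ranged from -0.81 to 0.66. In spleen conventional CD4 and CD8 T cells 4 and 5 members had an unadjusted p under 0.05, the 2 called in each among them. Of all genes 2297 of 11726 had it in spleen conventional CD4 and 909 of 11677 in spleen CD8 T cells. Il6ra had a lower mean at 12 months in all sets but tumor dendritic cells (117 against 107 CPM), and passed the threshold in none. Its means were 215 against 258 CPM in spleen CD8 and 209 against 261 CPM in spleen regulatory T cells. The interaction of age and tissue called 0 members in macrophages (0% of genes), dendritic cells (0% of genes) and regulatory T cells (0% of genes), also with DESeq2. At an unadjusted p under 0.05 were 2, 2 and 0 members. Of all genes, 619 of 12876, 778 of 13981 and 521 of 13345 were at that level in the same order of types.

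**Figure D5:**
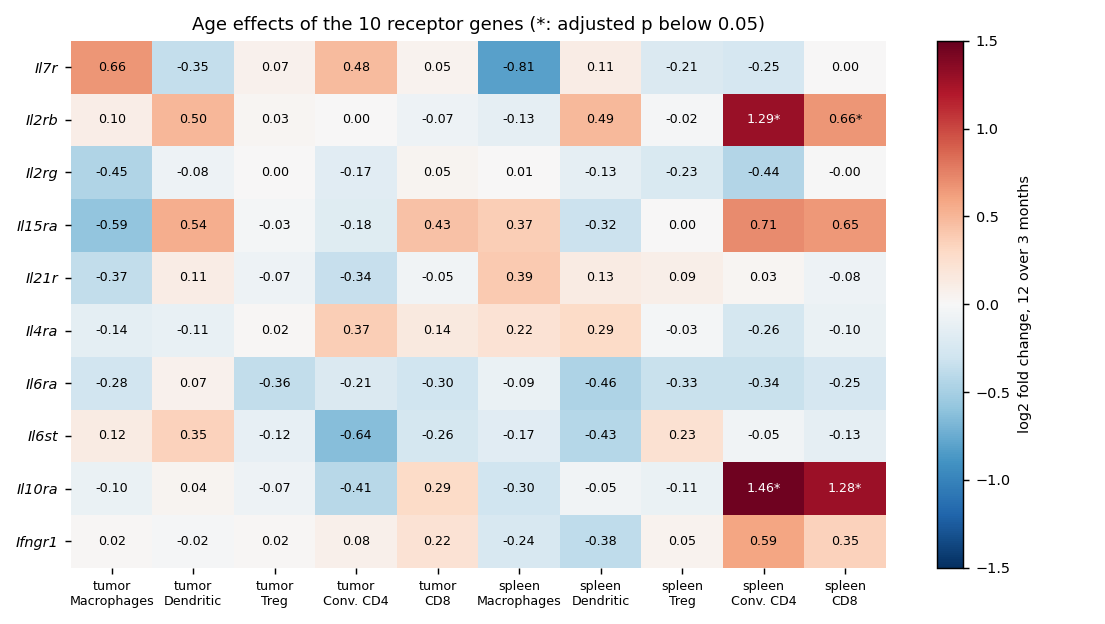
Log2 fold change of 12 over 3 months for the 10 receptor genes in 5 cell types and both tissues; an asterisk marks an adjusted p under 0.05. The 4 marked cells are Il2rb and Il10ra in spleen conventional CD4 (1.29 and 1.46) and spleen CD8 T cells (0.66 and 1.28).

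Of 57 further genes of these pathways, in 4 lists, many also differed between tumor and spleen. The medians quoted are log2 fold changes, to be read beside the medians over all genes given above. Each count covers only the list genes that passed the filter on low counts in that comparison. A gene scarce in spleen can pass that filter through its tumor libraries alone. An excess of higher over lower genes, above all among ligands, can therefore come from the filter and is no test of a list. The same limit holds for the other counts of these lists below. Of all genes 51.7% differed in macrophages, 47.1% in dendritic cells, 53.5% in regulatory, 27.2% in conventional CD4 and 42.1% in CD8 T cells, and some list counts lie near these shares, such as the 4 of 8 ligands called in macrophages. Among ligands, 3 of 8 were higher and 1 lower (median 0.57) in macrophages, 7 of 9 were higher and 0 lower (median 2.73) in dendritic cells, 3 of 5 were higher and 0 lower (median 0.77) in regulatory, 8 of 11 were higher and 0 lower (median 3.13) in conventional CD4 and 3 of 6 were higher and 0 lower (median 3.71) in CD8 T cells. Il10, the ligand of Il10ra, was among the ligands higher in tumor in all 5 types, at 505 to 1189 CPM in tumor against 0.761 to 7.73 CPM in spleen regulatory T cells (7.88 (SE 0.35)) and 96.3 to 1019 CPM in tumor against 0.316 to 17.1 CPM in spleen conventional CD4 T cells (6.76 (SE 0.57)). Ifng, the ligand of Ifngr1, was at 97.3 to 849 CPM in tumor against 1.71 to 15.3 CPM in spleen CD8 T cells, 6.20 (SE 0.46), and it was 3.54 (SE 0.32) in conventional CD4 T cells. Osm, a ligand whose receptor uses Il6st, was at 196 to 324 CPM in tumor against 1.95 to 9.57 CPM in spleen dendritic cells, 5.80 (SE 0.23).

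Among partner receptors, 7 of 13 were higher and 2 lower (median 0.45) in macrophages, 8 of 12 were higher and 3 lower (median 0.64) in dendritic cells, 5 of 12 were higher and 3 lower (median 0.12) in regulatory, 6 of 14 were higher and 1 lower (median 0.76) in conventional CD4 and 4 of 9 were higher and 3 lower (median -0.04) in CD8 T cells. Il2ra, the high-affinity chain that joins Il2rb and Il2rg, was higher in tumor in all 5 types, with log2 fold changes of 5.10 (SE 0.33) in CD8, 2.92 (SE 0.24) in conventional CD4 and 1.11 (SE 0.11) in regulatory T cells, 4.58 (SE 0.31) in dendritic cells and 2.71 (SE 0.51) in macrophages. Its level was 29.7 to 120.3 CPM in tumor against 0.244 to 6.78 CPM in spleen CD8 T cells; its protein, CD25, was a gate for both CD4 sorts. Crlf2, which joins Il7r in the receptor for thymic stromal lymphopoietin, rose in tumor regulatory T cells by 2.39 (SE 0.17).

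Among kinases and transcription factors, 4 of 11 were higher and 3 lower (median -0.12) in macrophages, 7 of 11 were higher and 0 lower (median 0.44) in dendritic cells, 6 of 11 were higher and 4 lower (median 0.86) in regulatory, 8 of 11 were higher and 0 lower (median 0.92) in conventional CD4 and 6 of 11 were higher and 1 lower (median 0.34) in CD8 T cells. Jak3, the kinase that binds Il2rg, rose by 1.30 (SE 0.09) in regulatory T cells, 1.04 (SE 0.13) in CD8 T cells and 1.02 (SE 0.11) in macrophages. Stat5b, a factor downstream of interleukin 2 and interleukin 7, was lower in tumor macrophages, -1.48 (SE 0.12). Among feedback inhibitors and targets, 6 of 15 were higher and 4 lower (median -0.01) in macrophages, 8 of 15 were higher and 4 lower (median 0.72) in dendritic cells, 5 of 15 were higher and 6 lower (median 0.11) in regulatory, 5 of 15 were higher and 3 lower (median 0.17) in conventional CD4 and 6 of 15 were higher and 5 lower (median 0.11) in CD8 T cells. Cish, a feedback inhibitor induced by STAT5, was at 226 to 478 CPM in tumor against 7.59 to 19.6 CPM in spleen CD8 T cells, with log2 fold changes of 4.79 (SE 0.19) there, 3.55 (SE 0.15) in conventional CD4 T cells, 1.60 (SE 0.08) in regulatory T cells and 6.14 (SE 0.31) in dendritic cells. Bcl2, a survival gene regulated through Il7r and Il2rb, moved the other way in regulatory T cells, at 0.834 to 15.9 CPM in tumor against 518 to 704 CPM in spleen, -6.49 (SE 0.37). For age, the genes of these lists that passed were 3 of 7 ligands and 1 of 15 feedback genes tested in spleen conventional CD4 T cells, where 3.92% of all genes did, all higher at 12 months: Il21 (4.37 (SE 0.54)), Ifng (2.28 (SE 0.49)), Il10 (2.59 (SE 0.70)) and Socs3 (1.64 (SE 0.25)). Such list genes were not followed through the alternatives, and the 3-month group includes the libraries rich in ribosomal protein transcripts described above.

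Across the 20 group means of log2(CPM + 1) the members varied with each other to different degrees; these correlations share libraries and cell types and are descriptions. Pearson's r was 0.94 for Il2rb with Il2rg, 0.78 for Il7r with Il2rg and 0.73 for Il4ra with its neighbour Il21r. It was negative for Il7r with Il10ra at -0.74, for Il15ra with Il6ra at -0.74 and for Il6ra with Ifngr1 at -0.67. Among 10722 genes with a mean of at least 10 CPM in some group, the profile most like that of Il2rg was Cd5 (r = 0.978) and that most like Il2rb was Ahcy (0.961). The nearest were Ccnd2 for Il7r (0.944), Fbxw8 for Il15ra (0.823), Minpp1 for Il21r (0.937), Naglu for Il4ra (0.951), Cyp4f13 for Il6ra (0.912), Tcaim for Il6st (0.930), Bnip2 for Il10ra (0.960) and Runx2 for Ifngr1 (0.929), each over 20 groups.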

How the data were processed

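Gene counts of 74 libraries were taken from the table the authors deposited, which holds raw read counts per gene symbol with no normalization. Per the submitters' processing notes, STAR 2.5.3 and featureCounts were used with the mm10 build, with an annotation release and strand setting not given in the sources used here, so reads from overlapping or antisense genes could be shared. Groups, ages, sex and sort gates come from the labels, and titles set the age where labels conflict. Counts were divided by the library total for CPM, and by exon length (GENCODE M21 on GRCm38) for CPM per kb. Smart-seq2 reads carry no molecular identifiers, so floors of 3 counts cover counting error only.

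Differences were tested on the deposited counts with edgeR 4.0.16 (R 4.3.3, limma 3.58.1; TMM, filterByExpr, robust quasi-likelihood fits, two-sided) over all genes, in 29 comparisons. Tumor against spleen had age as a term, and each age comparison used the 2 groups concerned; type comparisons fitted both types together, and dendritic cell fits had sex as a term. Alternatives were DESeq2 1.42.0 size factors and its Wald test, no filter, a replicate block, leaving out single or doubtful libraries, and library totals, the last chosen after seeing the data. No pair of replicates among 103 held identical values. Same-numbered libraries deviated together (r over 0.1 in all 4 pairs, 0.118 to 0.376) in regulatory T cells of tumors between ages, and there the block changed no call of a member. Members and gene lists were chosen with earlier results of these data known. The text names all 10 members for tumor against spleen. In the other comparisons it names each member past the threshold and only some of those short of it. Up to 3 genes of each pathway list, by the smallest adjusted p, are also named, as is Il2ra. The most similar profile is given for each member (log2 of CPM plus a pseudocount of 1). Simulated counts with known changes were made only for CD8 T cells (tumor against spleen, and age in spleen) and for regulatory against conventional CD4 T cells in tumor. No interaction or difference of effects was simulated, and the outcome is not given here. Tables and figures used Python 3.11.15, pandas 2.3.3, numpy 2.4.6 and matplotlib 3.10.9.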

Additional observations from a re-analysis of the deposited data

Results flagged for a closer look

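Within groups of 4 libraries, 150 checks for a library far from the other 3 singled out 9 values, where chance alone picks about 1 in 20. In spleen regulatory T cells these were Il7r at 217 CPM in 12-month replicate 3, and Il6st at 138 CPM and Ifngr1 at 485 CPM in 3-month replicate 2, a single library low in Il6st and high in Ifngr1. In tumor regulatory T cells Il4ra was high at 584 CPM in 3-month replicate 4 and Il6ra was low at 33.0 CPM in 12-month replicate 2. In macrophages Il2rg was at 155 CPM in tumor 12-month replicate 4 and at 290 CPM in spleen 12-month replicate 4, and Il21r at 252 CPM in tumor 3-month replicate 2. In spleen conventional CD4 T cells Il7r was at 712 CPM in 12-month replicate 3.

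Effects that differed between groups by a test of the difference were the 11 given in the report. The tumor minus spleen difference in the log2 age effect on Il2rb was -1.32 in conventional CD4 T cells. Between regulatory and conventional CD4 T cells the tumor against spleen effect differed by 0.89 for Il7r, -2.0 for Il2rb and -0.85 for Ifngr1. Between CD8 and conventional CD4 T cells it differed by -1.67 for Il7r, -0.70 for Il2rb and -1.53 for Ifngr1. Between macrophages and dendritic cells it differed by 1.82 for Il7r, 1.51 for Il21r, -1.32 for Il6ra and -1.35 for Ifngr1.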

How the results depend on the processing

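Of 88 member differences past the threshold, 67 stayed past it in every alternative and 0 reversed. Among dendritic cells, the 7 members that differed between tumor and spleen became 4 with library totals (Il15ra, Il21r, Il10ra and Ifngr1 lost, Il2rg gained as lower in tumor), 4 without the 2 libraries of conflicting age labels and 4 with those libraries grouped by their age tag. The age by tissue interaction in conventional CD4 T cells, 1 member, became 2 without the filter on low counts, 2 with DESeq2, 0 with the replicate block and 0 without the 2 spleen libraries rich in ribosomal protein transcripts. Without those libraries the age difference in spleen conventional CD4 T cells went to 0 members of 2. The CD8 interaction, 0 members, became 1 without the filter and 1 with DESeq2. The replicate block changed these counts of members by over 1.5 times in no other comparison. Outside regulatory T cells of tumors some pair had r of 0.1 or less, so the numbers were not taken to pair libraries. Between ages, however, each of 4 pairs matched its own number best in spleen regulatory T cells and in CD8 T cells of both tissues. Between regulatory and conventional CD4 T cells 5 of 6 pairs did so in tumor and 6 of 7 in spleen. Between CD8 and conventional CD4 T cells 5 of 6 and 5 of 7 did, and between macrophages and dendritic cells 1 of 7 and 4 of 6. For CD8 against conventional CD4 T cells edgeR with the block also called Il4ra in tumor, -0.56 (adjusted p = 0.0388), and Il7r in spleen, 0.52 (adjusted p = 0.0156).

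Leaving out 1 library at a time gave 7 to 8 members for tumor against spleen in macrophages, 5 to 7 in dendritic cells, 8 to 9 in regulatory, 5 to 8 in conventional CD4 and 8 to 9 in CD8 T cells. For age in spleen it gave 1 to 4 members in conventional CD4 and 2 to 2 in CD8 T cells, for the interaction 0 to 3 in conventional CD4 and 0 to 1 in CD8 T cells, and 0 to 0 in the other age tests. For regulatory over conventional CD4 T cells it gave 6 to 8 in tumor, 8 to 9 in spleen and 3 to 4 for the difference; for CD8 over conventional CD4 T cells 4 to 7, 2 to 3 and 3 to 5; for macrophages over dendritic cells 5 to 6, 6 to 7 and 3 to 5. Single libraries brought in members otherwise short of the threshold: Il7r in conventional CD4 T cells without spleen 3-month replicate 3, Il2rg in macrophages without spleen 12-month replicate 4 or tumor 3-month replicate 2, and Il6st in macrophages without tumor 3-month replicate 4. DESeq2 gave no adjusted p for Il6ra in CD8 T cells. Over all genes, the count that differed by age in spleen conventional CD4 T cells was 460, 839 without the filter, 881 with DESeq2 and 79 without the 2 ribosomal-rich libraries, and the tumor against spleen count in that type was 3990, or 2465 without them. The cause of these changes was not tested. Of 200 group levels, 53 moved by more than 1 SD when CPM used TMM-scaled library sizes. Groups of 2 to 4 libraries limit what could be seen, most of all in conventional CD4 tumors at 3 months, and differences short of the threshold are not shown to be absent.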

Other observations

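Regulatory and conventional CD4 T cells differed in 44.5% of all genes in tumor and 45.1% in spleen, and the counts of the wider pathway lists are given beside these shares. Of 11 ligand genes tested in regulatory against conventional CD4 T cells, 3 were higher and 6 lower in tumor regulatory T cells (median log2 difference -2.39, all genes -0.07), and 3 were higher and 4 lower in spleen (median 0.04, all genes 0.11). Of 14 partner receptors, 6 were higher and 1 lower in tumor regulatory T cells, and 9 were higher and 0 lower in spleen regulatory T cells; Il2ra is one of them, and its protein was a gate of the sort. In tumor CD8 against conventional CD4 T cells, where 14.5% of all genes differed, of 11 ligands 1 was higher and 6 were lower (median -1.65, all genes -0.02).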
